A study of Mus musculus with 11 samples.

Results

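A pair of stretches of the mouse genome carried many HIV integration sites, each lying under the model of a long intergenic noncoding RNA (lincRNA). The first is the span of Gm17627 on chromosome 5, from 123497382 to 123680880 (mm9, minus strand, 183.5 kb). The second is the span of Gm16736 on chromosome 17, from 46608450 to 46962170 (plus strand, 353.7 kb). They were chosen by their site counts, which were high in every library, so their height is given as a description and is not tested. Among 831994 different sites in 11 libraries, 961 (0.116%) lay in the 2 intervals, which make up 0.0210% of the genome's known bases: 442 under Gm17627 and 519 under Gm16736.

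The libraries come from HITseq, in which a protein of interest is fused to the integrase-binding domain (IBD) of LEDGF, so that HIV integrates near the places where that protein sits on chromatin. LEDGF is the host factor that normally tethers the viral integrase, and all cells here were LEDGF-/- mouse embryonic fibroblasts (MEF) of the C57BL/6 strain, electroporated with a plasmid for the fusion, infected with HIV 24 h later and grown for 3 more days. Each protein has 1 library: NELFA, NELFB, NELFCD and NELFE of the negative elongation factor (NELF, 4 libraries), INTS3, INTS9, INTS11, NABP1, NABP2 and INIP (the Integrator group, 6 libraries), and SPT5 (1 library). INTS9 and INTS11 belong to the RNA-cleaving core of Integrator, and INTS3 also forms the single-strand DNA-binding SOSS complex with NABP1 or NABP2 and INIP. No library without a fusion, with the IBD alone, or from cells with LEDGF was analysed here, and the subunits of a complex stand in for replicates, so that each SD is a spread between proteins and each p measures only that spread.

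NELF and SPT5, a subunit of DSIF, hold RNA polymerase II shortly after it leaves a gene start, whereas Integrator binds paused polymerase and cleaves the nascent RNA. Maps of such proteins are therefore read by the distance to gene starts. A lincRNA model may span other genes, and a site under it can lie in an exon of the lincRNA, in a gene nested within its intron, or next to such a gene.

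Depth ran from 18753 different sites in NELFE to 197069 in INTS9 with a median of 41265, and a site rate is given per 100000 sites of its library throughout. Read names put all 4 NELF libraries on a flow cell that holds no Integrator library, and SPT5 alone on another. A difference between families thus cannot be told apart from one between flow cells, and the families could not be compared within a flow cell. NABP1, NABP2 and INTS9 each join runs from different flow cells. By run, their Gm17627 rates were 43.5, 47.8 and 53.0 in NABP1, 57.6 and 58.7 in NABP2, and 32.3 and 19.6 in INTS9. As a check of the cell label, 20 of 20 fibroblast marker genes (bodies with 5 kb on each side) were hit as a list at 2.13 to 9.15 times a uniform density over the 11 libraries, and 8 hepatocyte genes at 0.368 to 1.84 times.

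The 300-base windows with the most sites in the 2 busiest 5-kb bins of each interval are shown first, because they are where the sites of the intervals were densest. Each is the plus strand of mm9, 5′ to 3′, and a capital marks a base at which the first genomic base beyond the viral end was mapped in at least 1 library, on either strand. The first lies at chr5:123589699-123589998 and held 23 sites from 8 libraries, at -2503 to -2204 bases from the start of Setd1b. The second lies at chr5:123590425-123590724 and held 29 sites from 10 libraries, at -1777 to -1478 bases from the same start. Both are inside AI480526, a noncoding transcript model that runs away from Setd1b. The third lies at chr17:46693449-46693748 with 11 sites from 5 libraries, at -637 to -338 bases from the start of Srf. The fourth lies at chr17:46841410-46841709 with 7 sites from 4 libraries, 242 to 541 bases downstream of the start of Ppp2r5d, within the gene.
AI480526 window 1: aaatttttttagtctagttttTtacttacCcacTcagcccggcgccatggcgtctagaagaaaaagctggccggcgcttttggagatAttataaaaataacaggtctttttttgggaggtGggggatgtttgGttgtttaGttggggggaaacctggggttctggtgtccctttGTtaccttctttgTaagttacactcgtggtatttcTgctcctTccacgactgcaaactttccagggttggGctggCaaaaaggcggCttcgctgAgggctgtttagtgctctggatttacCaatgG
AI480526 window 2: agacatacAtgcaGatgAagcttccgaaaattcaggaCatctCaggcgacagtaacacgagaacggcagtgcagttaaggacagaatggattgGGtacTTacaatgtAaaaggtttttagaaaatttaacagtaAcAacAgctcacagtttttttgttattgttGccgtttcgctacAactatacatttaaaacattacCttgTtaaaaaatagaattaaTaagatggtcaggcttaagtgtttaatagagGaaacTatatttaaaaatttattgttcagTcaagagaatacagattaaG
Srf upstream window: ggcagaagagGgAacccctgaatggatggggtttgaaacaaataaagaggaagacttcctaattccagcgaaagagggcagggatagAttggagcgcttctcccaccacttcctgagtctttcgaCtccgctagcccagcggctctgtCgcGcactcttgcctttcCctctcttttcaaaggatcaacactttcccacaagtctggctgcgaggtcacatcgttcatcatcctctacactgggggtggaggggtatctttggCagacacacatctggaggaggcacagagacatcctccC
Ppp2r5d window: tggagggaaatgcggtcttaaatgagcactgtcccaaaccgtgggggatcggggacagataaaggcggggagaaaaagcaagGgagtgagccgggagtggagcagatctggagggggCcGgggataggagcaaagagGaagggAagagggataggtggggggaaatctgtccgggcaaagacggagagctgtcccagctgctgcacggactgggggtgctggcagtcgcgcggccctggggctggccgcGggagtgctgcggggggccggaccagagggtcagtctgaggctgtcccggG

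The capitals are scattered over each window. The 23 sites of the first fell on 18 different bases and the 29 of the second on 22. The dinucleotide CG, which reads the same on both strands, occurred 9, 6, 9 and 17 times in the windows as listed. Of 300-base windows centred on the 22350 protein-coding starts, 60.8% held at least 9, 69.1% at least 6 and 46.7% at least 17, with a median of 15. The first pair of windows had 46.7% and 33.0% G or C, the Srf window 53.3% and the Ppp2r5d window 65.0%, beside a median of 58.0% at the starts.

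Under Gm17627, most of the pooled sites lay in one short stretch, although the share differed between libraries. The mean rate was 60.7 ± 27.0 sites per 100000 (SD, n = 11 libraries), where a uniform density would give 7.18. In the NELF libraries the rates were 106 (NELFA, 32 sites), 100.1 (NELFB, 31), 60.6 (NELFCD, 25) and 58.7 (NELFE, 11). In the Integrator group they were 58.1 (INTS3, 56 sites), 54.4 (NABP2, 48), 53.0 (INTS11, 18), 46.7 (NABP1, 88), 31.0 (INTS9, 61) and 16.1 (INIP, 4). SPT5 stood at 82.9 (68 sites). All libraries lay above the uniform level, but for INIP this rests on 4 sites, 2.24 times uniform with a 95% Poisson interval of 0.610 to 5.73, so a height above uniform was not detectable in that library at this depth. Intervals and limits here cover counting error only, since amplified products without molecular identifiers are not independent molecules.

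Under Gm16736, the mean was 60.2 ± 19.02 per 100000 (SD, n = 11) against a uniform 13.8. The NELF rates were 69.8 (NELFA, 21 sites), 67.9 (NELFCD, 28), 58.1 (NELFB, 18) and 26.7 (NELFE, 5). The Integrator rates were 74.8 (INTS3, 72 sites), 73.7 (NABP2, 65), 64.2 (NABP1, 121), 50.1 (INTS11, 17), 43.1 (INTS9, 85) and 40.2 (INIP, 10). SPT5 was highest of the 11 at 93.9 (77 sites), and NELFE lowest, at 1.93 times uniform with an interval of 0.626 to 4.50. The 2 libraries whose intervals reach the uniform level, INIP in the first interval and NELFE in the second, are also the 2 with the lowest depth, 24907 and 18753 sites.

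**Figure D1:**
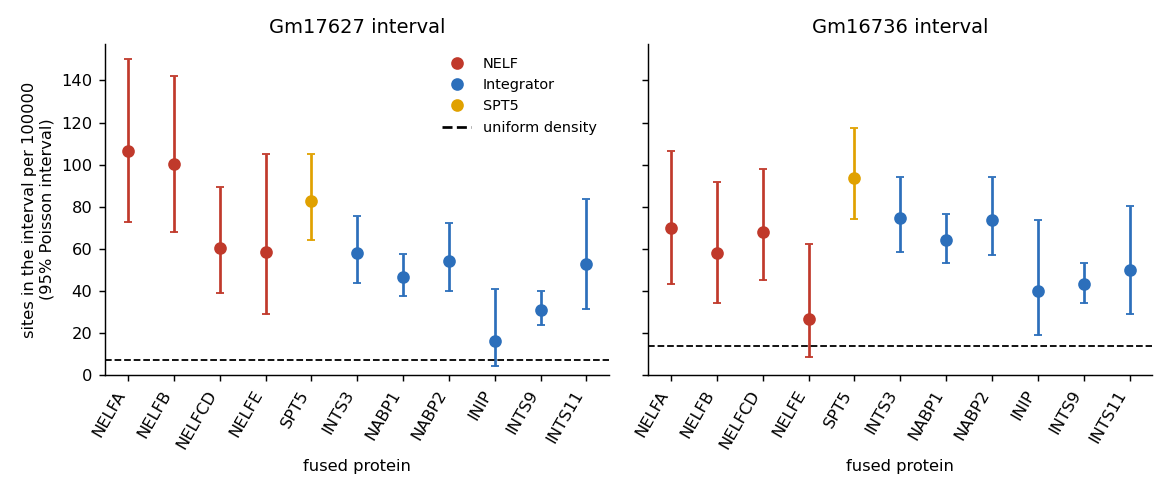
Sites per 100000 (vertical axis) in each interval for the 11 fused proteins (horizontal axis), with exact 95% Poisson intervals as bars, and a dashed line at the uniform density of 7.18 (Gm17627) and 13.8 (Gm16736). In the Gm17627 panel the 4 NELF libraries lie between 58.7 and 106 and the 6 Integrator libraries between 16.1 and 58.1, while in the Gm16736 panel the groups overlap.

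The neighbouring stretches of the same length set the intervals apart to different degrees. Left of Gm17627 the mean rate was 21.2 ± 8.21 and right of it 16.6 ± 7.67 (SD, n = 11), and these were lower than the interval in 11 and 10 of 11 libraries. Left of Gm16736 it was 56.7 ± 20.7, lower than the interval in only 6 of 11 libraries, and right of it 48.8 ± 19.7, lower in 10. The left neighbour of Gm16736 thus held about as many sites as Gm16736 (522 against 519), and the difference was smaller than the spread between libraries. Among the 82 lincRNA models of at least 100 kb, Gm17627 had the highest mean site density, 8.46 times uniform, and Gm16736 the fourth highest, 4.35 times. D230004N17Rik (8.403 times, 343 sites) and Gm17480 (6.63 times, 380 sites) came between them, and the median of the 80 others was 0.737 times.

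The exons of the lincRNAs held few of the sites. Under Gm17627, 5 of 442 sites (1.13%, exact binomial 95% interval 0.368 to 2.62%) lay in an exon of Gm17627, whose exons make up 1.02% of the span, and 3 lay within 1 kb of its start, counting only inside the interval. Under Gm16736, 0 of 519 sites lay in its exons (0.4925% of the span) and 0 within 1 kb of its start, which allows a share of up to 0.578% (3 counts of the total; the exact binomial upper limit is 0.708%). Sites in a lincRNA model alone, farther than 5 kb from any protein-coding gene and outside other models, came to 18 (4.07%) under Gm17627 and 3 (0.578%) under Gm16736.

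AI480526 (ENSMUSG00000090086.1, chr5:123583732-123591675, minus strand, annotated as a processed transcript) carried most of the Gm17627 sites. Its body covers 4.33% of the interval and held 278 of the 442 sites, 62.9% (58.2 to 67.4%). The share was 81.3% in NELFA, 77.4% in NELFB, 84.0% in NELFCD, 90.9% in NELFE and 70.6% in SPT5. In the Integrator group it was 81.3% in NABP2, 55.6% in INTS11, 55.4% in INTS3, 48.9% in NABP1, 41.0% in INTS9 and 25% in INIP, where it stands for 1 of 4 sites. The mean of the 11 shares was 64.7 ± 20.9%. Exons cover 59.5% of the AI480526 body, and 56.1% of its sites lay in them, so exons and introns were hit about in proportion to their length. Of the 278 sites 125 were on the plus strand.

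The start of AI480526 faces that of Setd1b (ENSMUSG00000038384.10, chr5:123592202-123617444, plus strand), which encodes a histone H3 lysine 4 methyltransferase, and 527 bases separate the starts. Within 10 kb of the Setd1b start lay 340 sites, and 300 of them (88.2%) were upstream of it, on the AI480526 side, at a median of -2470 bases with quartiles of -5045.5 and -1083.5. Between the 2 starts lay 20 sites. Sites spread along AI480526 at a median of 2523.5 bases from its start, with quartiles of 1238.2 and 4755.5 bases over the pooled sites. In the libraries with at least 10 sites there, the medians ran from 1195 in NELFE and 1519 in NELFA to 3698 in NELFB and 4066.5 in SPT5. The whole body of Setd1b, a longer gene, held 48 sites, among them 19 from NABP1, 7 each from SPT5, INTS3 and INTS9, 3 each from NABP2 and INTS11, 1 each from NELFA and NELFCD, and 0 from NELFB, NELFE and INIP.

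**Figure D2:**
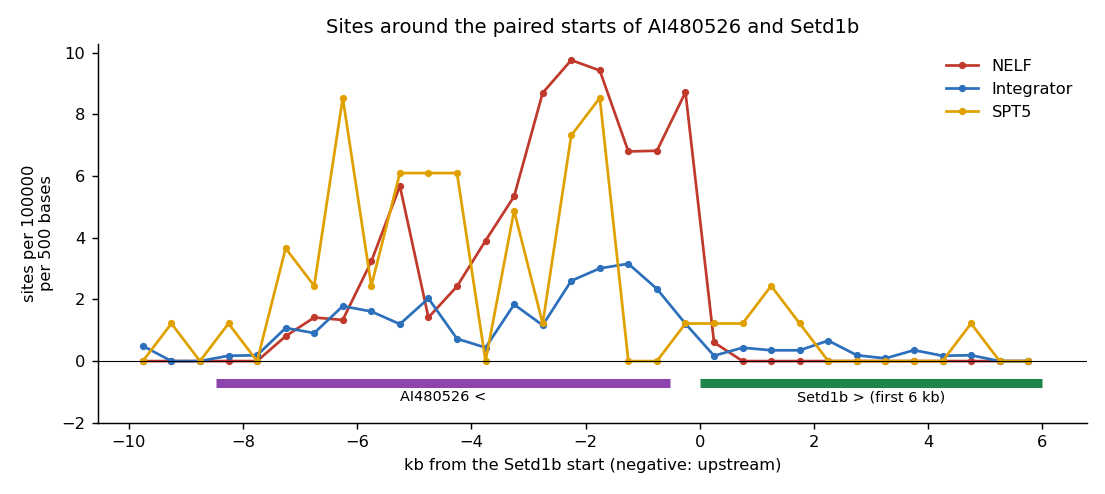
Mean sites per 100000 in bins of 500 bases (vertical axis) by distance in kb from the start of Setd1b (horizontal axis, negative upstream) for NELF (4 libraries), Integrator (6) and SPT5 (1). The bars below the lines mark AI480526 and the first 6 kb of Setd1b, and the sites lie over AI480526, with 300 of 340 within 10 kb upstream of the Setd1b start.

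The same stretch filled 2 of the 38 bins of 5 kb. The bin from 123585001 to 123590000 lies inside AI480526 and held 175 sites, and the next, from 123590001 to 123595000, which contains both starts, held 132. Together they had 69.5% of the interval's sites, whereas the other 36 bins had a median of 2 sites and at most 19. Over the 36183 bins of the genome that were ranked by mean rate, they stood at places 13 and 29. Rates in the first bin were 64.6 in NELFB, 43.2 in NELFA, 36.4 in NELFCD, 21.3 in NELFE and 43.9 in SPT5. In the Integrator group they were 23.8 in NABP2, 18.7 in INTS3, 15.9 in NABP1, 14.7 in INTS11, 6.60 in INTS9 and 0 in INIP, which allows up to 3 of its 24907 sites. NELFE is the NELF library that falls below NABP2, and the other 3 lie above all Integrator libraries.

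Rates in the second bin were 59.8 in NELFA, 37.3 in NELFE, 22.6 in NELFB and 17.0 in NELFCD, with 17.1 in SPT5. The Integrator group had 19.7 in INTS3, 18.1 in NABP2, 17.7 in INTS11, 11.7 in NABP1, 7.61 in INTS9 and 4.02 in INIP, so NELFCD lies within the Integrator range. It was the only bin of the interval with a site from all 11 libraries. The third bin, which contains the start of Rhof and the 3′ end of AI480526, held 19 sites from 7 libraries, with 2.22 ± 2.40 per 100000. Of these, 3 lay within 1 kb of the Rhof start. The fourth bin, inside Tmem120b, held 16 sites from 6 libraries, with 1.42 ± 1.57.

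The other coding genes of the interval followed far behind once the overlap with AI480526 is set aside. Rhof (ENSMUSG00000029449.5, chr5:123553053-123582701, minus strand) had 120 sites in its body with 5 kb on each side, but only 14 in the body, because its upstream margin reaches into AI480526. Its rates ran from 0 in INIP to 41.99 in NELFB, 15.2 ± 12.7 over the 11 libraries. For Setd1b the same window held 265 sites, of which 48 lay in the body, at 4.02 in INIP to 103 in NELFA and 40.8 ± 26.3 on average. Tmem120b (chr5:123518424-123567758, plus strand), a membrane protein, had 50 sites in its window and 46 in its body, 4.53 ± 3.08 per 100000, with no site in NELFA or NELFE. Psmd9 (chr5:123678199-123700140), a chaperone of proteasome assembly, had 23 sites at 2.20 ± 2.94, none from NELF, and most of them lay past the interval's end. Hpd, an enzyme of tyrosine breakdown that is active in liver, had 6. By nearest protein-coding start, 251 sites (56.8%) went to Setd1b, 110 to Rhof, 51 to Tmem120b, 13 to Hpd, 10 to Psmd9 and 7 to Morn3, whose start lies outside.

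**Figure D3:**
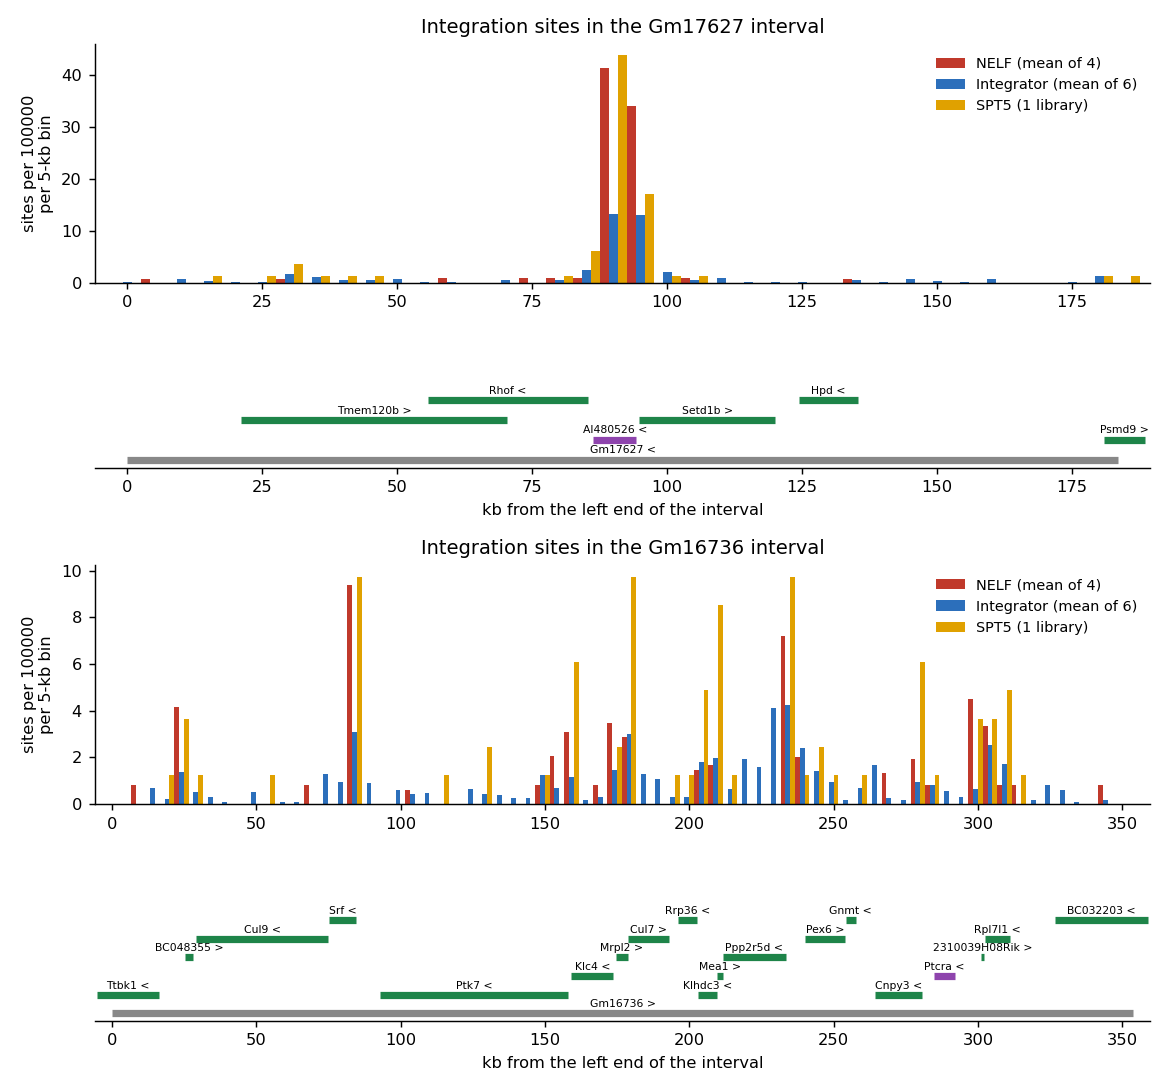
Sites per 100000 in 5-kb bins (vertical axis) along each interval (kb from its left end), as the mean of 4 NELF libraries, the mean of 6 Integrator libraries and the single SPT5 library, above the gene models (arrowheads give the strand, grey the lincRNA, green protein-coding genes, purple AI480526 or Ptcra). Gm17627 has 1 peak, 2 bins wide with 69.5% of the sites, whereas the sites of Gm16736 are spread over many genes, with 34.7% within 1 kb of a coding start.

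Under Gm16736, by contrast, the sites were spread over many coding genes. The interval overlaps 18 protein-coding genes, with 17 starts inside, and Ptcra, the pre-T-cell receptor alpha chain. Of the 519 sites, 373 (71.9%, 67.8 to 75.7%) lay inside a protein-coding gene, against 79.0% of the length, and 136 more (26.2%) lay outside but within 5 kb of one. Within 1 kb of a coding start lay 180 sites, 34.7% (30.6 to 39.0%), on 8.85% of the length. Of the 72 bins of 5 kb, 8 held no site, none held a site from all 11 libraries, and 11 were needed to reach 50.0% of the sites. The 15 bins with a coding start had a median of 17 sites and 54.5% of the total, and the others a median of 3.

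Ppp2r5d (ENSMUSG00000059409.7, chr17:46819940-46841951, minus strand), a regulatory subunit of protein phosphatase 2A, had the highest mean rate of the coding genes, 13.6 ± 5.74 per 100000 in its window (111 sites, 67 in the body). It was hit by all 11 libraries: 9.96 in NELFA, 12.9 in NELFB, 9.69 in NELFCD, 5.33 in NELFE, 19.5 in SPT5, 14.5 in INTS3, 12.2 in NABP1, 21.5 in NABP2, 12.0 in INIP, 8.12 in INTS9 and 23.6 in INTS11. The ranges of the groups overlap, and the 2 highest libraries are INTS11, with 8 sites, and NABP2, with 19.

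Srf (ENSMUSG00000015605.5, chr17:46683788-46693111, minus strand), the serum response factor that drives immediate early and cytoskeletal genes, followed at 7.34 ± 4.24 (53 sites). NELF gave 14.5 in NELFCD, 13.3 in NELFA, 9.69 in NELFB and 0 in NELFE. SPT5 gave 9.75, and the Integrator group 8.03 in INIP, 5.89 in INTS11, 5.58 in INTS9, 5.19 in INTS3, 4.54 in NABP2 and 4.25 in NABP1. The 3 NELF libraries with a site have higher rates than all 6 of the Integrator group, and NELFE, with 0 of 18753 sites, falls below them. These rates rest on 4 sites in NELFA, 3 in NELFB and 6 in NELFCD, beside 2 each in INIP and INTS11. With so few sites the order is not secure, and Srf had too few to be tested.

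Ptk7 (7.34 ± 6.24, 77 sites), a receptor-like pseudokinase of planar cell polarity, Cul7 (7.33 ± 4.09, 61 sites), a cullin scaffold of ubiquitin ligases, and Rpl7l1 (7.33 ± 4.39, 57 sites), which resembles a ribosomal protein, had nearly the same mean rates as Srf. The 4 values differ by far less than their spread. Ptk7 is long (chr17:46701400-46766453), had 59 sites in its body and was at 0 in NELFB, NELFE, INIP and INTS11, with up to 16.6 in NELFA. Cul7 (chr17:46787286-46801313) ran from 0 in NELFE to 13.4 in SPT5.

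Per kb of window the order changed. 2310039H08Rik had 0.487 sites per 100000 per kb, Mrpl2, a mitochondrial ribosomal protein, 0.485, Ppp2r5d 0.424, Rpl7l1 0.391 and Srf 0.380, while Ptk7 had 0.0978. Gnmt, a liver enzyme that methylates glycine, Ttbk1, a kinase of brain, and BC032203 had the lowest mean rates per window, 1.18, 2.01 and 2.04, and 0, 2 and 0 sites within 1 kb of their starts. The start of BC032203 lies outside the interval, and the windows of BC032203 and Ttbk1 reach beyond it. The windows of neighbours overlap here too, so counts of single genes are not additive. By nearest coding start the leading genes were Ppp2r5d with 71 sites (13.7%), Srf with 63, Ptk7 with 60, Cul7 with 39 and 2310039H08Rik with 38.

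Within 1 kb of a start, Ppp2r5d had 28 sites from 10 libraries, 2310039H08Rik 25 from 10, Srf 20 from 8, and Cul7 14 from 5. The busiest bins were those of the Srf start (46690001 to 46695000, 41 sites, 5.98 ± 4.94, place 612 in the genome) and of the Ppp2r5d start (46840001 to 46845000, 44 sites, 5.83 ± 3.60, place 645). The bin of the Cul7 start (32 sites, 3.56 ± 2.85) and the one with the 3′ ends of 2310039H08Rik and Rpl7l1 (22 sites, 2.94 ± 1.90) came next. Both busiest bins lie far below the first bin of Gm17627 (26.3 ± 18.9).

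**Figure D4:**
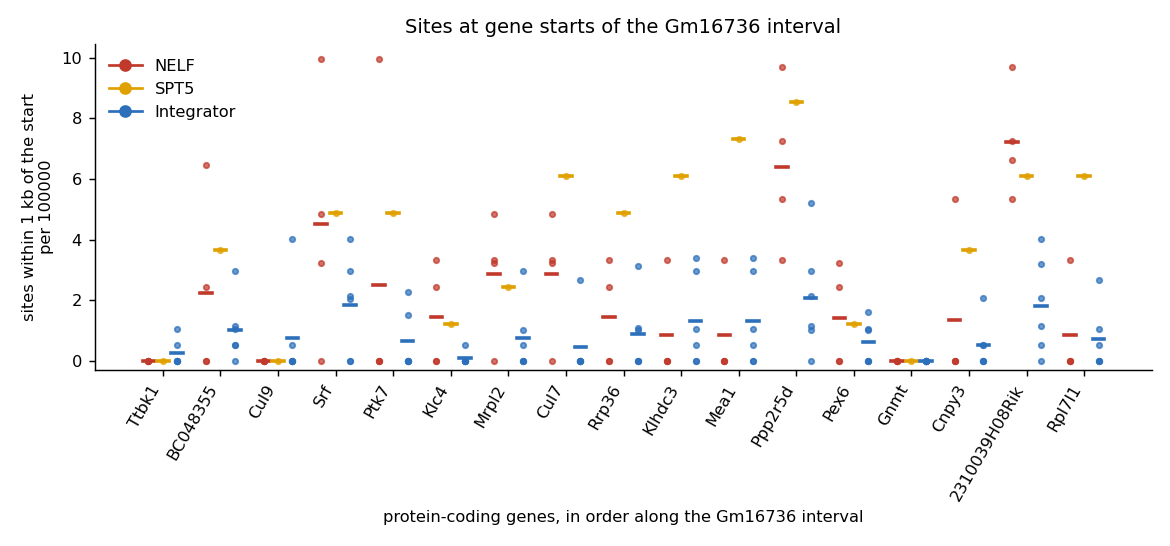
Sites per 100000 within 1 kb of the start (vertical axis) of the 17 protein-coding genes that start in the Gm16736 interval (horizontal axis, in order along it), with a point for each library and a bar at the mean of NELF (4), SPT5 (1) and Integrator (6). Ppp2r5d, 2310039H08Rik and Srf have the most sites, 28, 25 and 20, and Gnmt has 0.

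On the plus strand lay 48.6% of sites under Gm17627 (43.9 to 53.4%) and 55.1% under Gm16736 (50.7 to 59.4%, an interval that lies just above 50%). Of 414 different positions under Gm17627, 22 (5.31%) were found in more than 1 library, at most 3, and of 508 under Gm16736 11 (2.17%), at most 2, beside 0.638% over the series. NABP1 and NABP2, which were partly run in the same lane, shared 2 and 1 of these positions.

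The design sets NELF, which acts at pausing, beside Integrator, and the sites of each interval were compared between these groups. Exact two-sided permutation tests used all 210 assignments of the 10 libraries to groups of 4 and 6, for which 0.00476 is the smallest p that can be reached, and 11 such tests were adjusted together by the Benjamini-Hochberg method. Under Gm17627 NELF had 81.4 ± 25.3 sites per 100000 and Integrator 43.2 ± 16.4, a difference of 38.2 (exact permutation p = 0.00476, adjusted p = 0.0175), and the groups did not overlap (lowest NELF 58.7, highest Integrator 58.1). SPT5, at 82.9, lay in the NELF range. How many other stretches of the genome separate the groups in this way was not counted. The tests of the interval rates use the rates that chose the intervals, so they are not independent of that choice. Leaving out NELFA or NELFB brought the Gm17627 difference to 29.9 and 32.0 and the adjusted permutation p to 0.0524 and 0.0655. Under Gm16736 NELF had 55.6 ± 19.95 and Integrator 57.7 ± 15.3, a difference of -2.07 that is smaller than either spread (exact p = 0.867, adjusted p = 0.867).

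The difference between the intervals was itself tested, by a comparison added after the values had been seen and on the rates that chose the intervals. The log2 ratio of the Gm17627 rate to the Gm16736 rate was 0.59 ± 0.55 in NELF and -0.50 ± 0.46 in Integrator, a difference of 1.09 (exact permutation p = 0.00952, adjusted p = 0.0210). The ranges overlapped, from -0.16 to 1.14 in NELF and from -1.32 to 0.08 in Integrator. The adjusted p passed 0.05 when any of NELFA, NELFB, NELFE, INTS3, NABP1, INIP or INTS9 was left out, with values of 0.0524 to 0.0655.

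Where the sites lay within Gm16736 differed between the groups although the number did not. Within 1 kb of a coding start lay 61.7 ± 6.28% of the interval's sites in NELF, 24.6 ± 6.50% in Integrator and 63.6% in SPT5. No NELF library (53.6 to 66.7%) fell in the Integrator range (12.3 to 30.0%), and the difference of 37.2 percentage points had an exact permutation p of 0.00476 (adjusted p = 0.0175). Without NELFA or NELFB the adjusted p was 0.0524 or 0.0655 with a difference of 35.5 points in both cases. Outside the intervals, a mean of 19.6% of NELF sites and 6.64% of Integrator sites lay within 1 kb of a start. There too the groups did not overlap, with 13.4 to 22.9% in NELF, 3.85 to 8.49% in Integrator and 22.6% in SPT5. Relative to the rest of its library, the share in the interval was raised by 1.66 ± 0.36 (log2) in NELF and by 1.91 ± 0.65 in Integrator, a difference of -0.25 within the spread (exact p = 0.557, adjusted p = 0.613). A pseudocount of 0.5 enters these relative shares. INIP, with 10 sites, had 3.05, and without it the Integrator mean was 1.69. The test of the relative share did not separate the difference in start share at Gm16736 from that over the rest of the genome.

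Under Gm17627 the start share was 19.9 ± 11.2% for NELF, 9.98 ± 7.53% for Integrator and 5.88% for SPT5. The difference did not pass the test (exact p = 0.133, adjusted p = 0.183). Relative to the rest of the library, with the same pseudocount of 0.5, it was -0.03 ± 1.1 in NELF and 0.84 ± 0.74 in Integrator (exact p = 0.171, adjusted p = 0.210). INIP had 0 of its 4 sites near a start, so its value of 1.38 comes from the pseudocount. Without INIP the Integrator mean was 0.73. AI480526 is not a coding gene, and its own start is not counted in this share. The first bin held 50.4 ± 14.0% of the interval's sites in NELF and 26.5 ± 15.0% in Integrator, with 52.9% in SPT5 (exact p = 0.0333, adjusted p = 0.0611). For Gm16736 the busiest bin held 14.3 ± 9.72% in NELF and 6.02 ± 3.09% in Integrator, with 10.4% in SPT5 (exact p = 0.0857, adjusted p = 0.135). NELFE, which has 5 sites in that interval, had 0 of them in the bin, and without it the share was 19.05% in NELF with an adjusted exact permutation p of 0.0437. In both intervals the bin was chosen by its mean rate over the same libraries, to which high NELF rates contribute. The tests of the busiest bin are therefore not independent of that choice.

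Within both intervals, a smaller share of NELF sites than of Integrator sites lay inside protein-coding genes. Under Gm17627 it was 6.20 ± 5.59% in NELF (0 to 12.0%), 31.2 ± 9.35% in Integrator (16.7 to 39.3%) and 25% in SPT5, and the difference of -24.98 points gave an exact permutation p of 0.00952 (adjusted p = 0.0210). Under Gm16736 it was 61.3 ± 5.10% in NELF (55.6 to 67.9%), 76.8 ± 9.03% in Integrator (70.0 to 94.1%) and 66.2% in SPT5, a difference of -15.5 points (exact p = 0.00476, adjusted p = 0.0175). Without NELFA, NELFB or NELFE the adjusted permutation p rose to between 0.0524 and 0.0655 for Gm17627 and between 0.0524 and 0.105 for Gm16736. With 5 kb added on each side of the genes the order turned, by 8.03 and 2.10 points in favour of NELF, neither of which passed the test (adjusted exact permutation p = 0.0943 and 0.165). Under Gm17627, AI480526 held a mean of 83.4% of the sites in NELF and 51.2% in Integrator, and none of these count as inside a coding gene. INIP has only 4 sites there. The share inside genes was not computed outside the intervals, so whether the difference is particular to them was not tested.

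**Figure D5:**
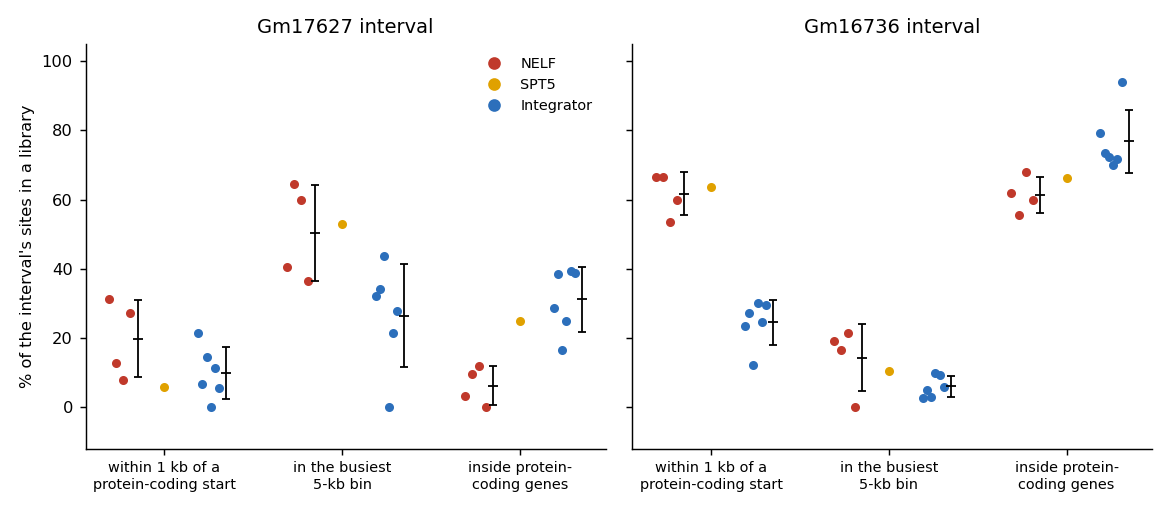
Share of each library's interval sites (vertical axis, %) that lay within 1 kb of a protein-coding start, in the busiest 5-kb bin, or inside protein-coding genes, for NELF (4 libraries), SPT5 (1) and Integrator (6), with the mean ± SD as a black bar. For Gm16736 the start share is 53.6 to 66.7% in NELF and 12.3 to 30.0% in Integrator, and for Gm17627 the share inside genes is 0 to 12.0% and 16.7 to 39.3%.

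Single genes and bins were tested with limma over the whole genome. Of the 27 gene models of the intervals, 4 averaged 10 or more sites over the libraries and were tested, and none was called. Of the 1130 genes tested, 7.08% were called higher in NELF and 0.354% lower, 7.43% in all (limma, adjusted p at most 0.05). At an unadjusted limma p under 0.05, 3 of the 4 would pass, beside 252 of the 1130 genes tested. AI480526 averaged 76.3 ± 24.2 sites per 100000 over NELF and 29.8 ± 16.5 over Integrator, with 68.3 for SPT5, a log2 difference of 1.59 with an SE of 0.52 (limma adjusted p = 0.0720). By library these were 103, 90.4, 53.3 and 58.7 in NELFA, NELFB, NELFCD and NELFE, and 46.5 in NABP2, 42.6 in INTS3, 38.3 in INTS11, 31.3 in NABP1, 16.2 in INTS9 and 4.02 in INIP, so the lowest NELF value lies above the highest of the Integrator group. How many of the 1130 genes tested show the same separation was not counted.

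Setd1b, whose window shares most of these sites, averaged 64.7 ± 26.8 over NELF and 24.3 ± 12.7 over Integrator, with 43.9 for SPT5 (log2 difference 1.57, SE 0.50, limma adjusted p = 0.0631). Left out one at a time, INTS3, NABP1 or NABP2 brought both genes to a limma adjusted p of 0.0370 to 0.0499. Without NELFA it was 0.197 for both, and without NELFB 0.193 for AI480526 and 0.141 for Setd1b. A pseudocount of 5 gave 0.0255 and 0.0238, and no filter beyond 1 site gave 0.00091 and 0.0047 (limma adjusted p). Gm17627 as a whole differed by 0.95 (SE 0.37, limma adjusted p = 0.137) and Gm16736 by -0.09 (SE 0.33, limma adjusted p = 0.893). The median log2 difference of all genes tested was -0.08.

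Of the 110 bins of the intervals 2 were tested, the ones on AI480526, and both were called higher in NELF, beside 31.5% of the 286 bins tested (33.6% in either direction). The first differed by 1.98 on the log2 scale (SE 0.61, limma adjusted p = 0.0114), and 21.3% of the bins tested differed by at least as much. Without INIP, which has 0 sites there, the difference was 1.32 (limma adjusted p = 0.0230), and over all libraries left out in turn it ran from 1.32 to 2.26. The second differed by 1.32 (SE 0.53, limma adjusted p = 0.0456), beside a median of 1.14 over all bins tested, and its limma adjusted p was above 0.05, at 0.0546 to 0.203, when NELFA, NELFB, NELFE, INIP or INTS9 was left out. Every deposited entry, a pseudocount of 0.5 and a mean of at least 3 sites also ended its call (limma adjusted p = 0.0644, 0.0518 and 0.0735). Bins of 10 kb ended both calls (limma adjusted p = 0.0652 and 0.131). With the bin borders moved by 2.5 kb, the first bin was no longer called (log2 difference 0.82, limma adjusted p = 0.392), whereas the second differed by 1.90 (limma adjusted p = 0.0016). Differences of this size between NELF and Integrator were thus common among the busiest bins of the genome.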

How the data were processed

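The deposited values are positions and not counts, signal or another expression unit: per the file headers and the labels, each entry is a 0-based mm9 position of the first genomic base beyond the viral end, with its strand, made by the authors from paired-end reads of linker-mediated and nested PCR products. The build is mm9 per the submitters' processing notes, and neither aligner nor read filters are given in the sources used here. The 873534 entries were reduced to 831994 different combinations of chromosome, position and strand, given here as 1-based positions. Gene models are GENCODE vM1 on the same assembly. Sites were counted per interval, per 5-kb bin and per gene with 5 kb on each side, and scaled to 100000 sites per library.

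Intervals of rates are exact Poisson and those of shares exact binomial (Clopper-Pearson), at 95%. Groups were compared with limma 3.58.1 in R 4.3.3 (trend, robust) on log2(rate + 1) over genes averaging 10 or more sites and bins averaging 5 or more, and with exact permutation tests (Python 3.11.15, scipy 1.17.1). Families follow known complexes. The intervals, gene rules and lists were chosen with earlier results of these data known. Named were the 4 coding genes and 4 bins per interval with the highest mean rate, the lincRNA models, AI480526 and members that were tested; genes beyond these were named as the lowest, the highest per kb, or nearest to sites, after their values were seen. On data simulated with a coefficient of variation of 0.3 between libraries, limma recovered 100% of 4-fold and 34.8% of 2-fold higher genes in a fit of 908 genes. It recovered 91.2% and 28.1% of such bins in a fit of 252. For 4-fold and 2-fold lower members the shares were 77.3% and 21.1% of genes and 69.2% and 20% of bins. The spread of AI480526 in Integrator, 29.8 ± 16.5, is wider than the simulated one, so recovery may be lower there. Alternatives were other site definitions, scalings, windows, filters and pseudocounts, and each library left out.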

Additional observations from a re-analysis of the deposited data

Results flagged for a closer look

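In 56 groups of 4 to 10 libraries that were checked for a value standing far from the others, 3 did, and chance alone flags about 1 group in 20. In NABP2, 12.3% of the Gm16736 sites lay within 1 kb of a coding start, whereas the other 5 Integrator libraries had 23.6 to 30.0%. The third bin of Gm17627 by mean rate contains the start of Rhof and the 3′ end of AI480526. There NELFB had 3.23 sites per 100000 and the other 3 NELF libraries 0. The NELFB site did not lie within 1 kb of the Rhof start. In the fourth bin, inside Tmem120b, NELFCD had 2.42 and the other NELF libraries 0. Each of these last 2 values stands for 1 site. Where the other libraries are all at 0, any value above 0 is flagged, so the rate of 1 in 20 does not apply to these 2. The difference between NELF and Integrator was larger under Gm17627 than under Gm16736 by 1.09 on the log2 scale, by the exact permutation test of the ratio of the 2 rates given above (adjusted p = 0.0210). That test was added after the values had been seen, on the rates that chose the intervals, and is not independent support. Of the 10 libraries left out in turn, 7 brought its adjusted p above 0.05.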

How the results depend on the processing

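No paired analysis was possible because the replicate numbers follow accession order and each library is a different protein. With each library left out in turn, the difference between NELF and Integrator ranged from 29.9 to 45.8 sites per 100000 for the Gm17627 rate and from -6.79 to 7.58 for the Gm16736 rate. It ranged from 0.91 to 1.34 for the log2 ratio of the rates. For the start share it ranged from 6.08 to 13.8 points (Gm17627) and 34.7 to 39.9 (Gm16736), and relative to the rest of the genome from -1.25 to -0.47 and -0.42 to -0.03. For the busiest bin it ranged from 18.6 to 28.5 points and 5.89 to 13.0, and inside coding genes from -27.9 to -22.9 and -17.7 to -12.03. Of the limma differences, Gm16736 ranged from -0.23 to 0.22. Leaving out a NELF library allows only 84 assignments, and an Integrator library 126, which raises the smallest permutation p.

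Limma called 57 to 103 bins and 60 to 93 genes higher in NELF, and 2 to 17 bins and 3 to 9 genes lower, when 1 library was left out, where all libraries gave 90, 80, 6 and 4. Without INIP and NELFE together, a setting added after seeing the data, the Gm16736 rate differed by 4.07, the Gm17627 share inside coding genes by -24.2 points and the log2 ratio by 0.74, both no longer past the threshold (adjusted exact permutation p = 0.0561). The busiest bin of Gm16736 then differed by 13.8 points and passed it (adjusted exact permutation p = 0.0491). A start window of 500 bases gave 7.60 points for the Gm17627 start share, which then passed the test, and 0.33 for the relative start share of Gm16736. The 3 busiest bins together gave 33.0 and 15.5 points, both past the threshold, although these bins too were chosen by the rates of the same libraries. Gene bodies with 5 kb on each side gave 8.03 and 2.10.

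Genes called lower in NELF numbered 8 with every deposited entry, 16 with a pseudocount of 5, 13 with a mean of at least 5 sites and 18 with no filter beyond 1 site. With margins of 1 kb, 5 genes were called higher and 2 lower, and with a mean of at least 20 sites 21 and 1. Bins called lower were 13 with bins of 10 kb. With a mean of at least 10 sites 24 bins were called higher and 1 lower, and with at least 3 sites 155 and 17. The cause of these shifts was not tested, beyond the changed number of features tested. Depth limits INIP under Gm17627 (4 sites) and NELFE under Gm16736 (5 sites).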
